A study of Homo sapiens with 16 samples.

Results

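The genes described here are 36 direct transcriptional targets of the tumor suppressor p53, picked by their symbols from the 57820 genes of the count table, with earlier results of these data known. Of these 36 genes, 34 had enough reads to be tested. SPATA18 and CMBL were not tested, with at most 8 and 4 counts in any library. PLK2 was tested only because of its reads in the HSB-2 cells with hairpins, where it reached 28 counts, against at most 2 in any Jurkat library. Levels are given as CPM (read counts scaled to library size with TMM normalization), changes as log2 fold changes with their standard error (SE), and a gene was called when the Benjamini-Hochberg adjusted p of edgeR's quasi-likelihood test, over all 23063 genes tested, was under 0.05.

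The libraries came from Jurkat and HSB-2, established T-ALL (T-cell acute lymphoblastic leukemia) cell lines that are both labelled TAL1+. Each line gave 4 groups of 2 libraries. These were wild-type cells, cells that received a scrambled control, and cells that received a short hairpin RNA (shRNA) against USP7, either shRNA-4057 or shRNA-4058. The hairpins were delivered by lentivirus, and transduced cells were sorted for GFP or selected with puromycin, so wild-type cells differ from the other groups by that handling as well. The labels call the scrambled control an siRNA in the sample descriptions and an shRNA in the series design. They do not say whether the 2 libraries of a group came from separate transductions, so p-values measure the spread between these libraries only. In bulk RNA, fewer cells expressing a gene and less RNA of that gene per cell cannot be told apart.

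p53 is a transcription factor that is kept low by MDM2, a ubiquitin ligase that is itself a p53 target, and that rises when MDM2 is blocked or DNA is damaged. Its targets stop the cell cycle, start cell death, repair DNA, adjust metabolism and feed back on p53 itself. USP7 removes ubiquitin from both MDM2 and p53, so less USP7 can in principle destabilize either protein, and the direction of the p53 response to a partial loss is not given by the mechanism alone. Jurkat is known as a line without functional p53.

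p53 binds DNA as a tetramer on a pair of adjacent decamers. Promoter sequence before the transcription start was found for 27 of the 36 genes in the RefSeq promoter table (GRCh38.p14), and the 250 bases before each start were searched for the p53 consensus, 20 bases long with no spacer. The fixed C and G of each decamer had to match, and at most 3 other mismatches were allowed. The consensus is its own reverse complement, so both strands were covered. It was found in 4 of the 27 promoters (14.8%) and in 235 of all 27305 promoters of the table (0.861%). All 4 promoters with a match are shown, and a link between the motif and the response to the hairpins was not tested. AEN rose against scrambled cells in both lines, RPS27L fell in Jurkat and rose in HSB-2, and FDXR rose in HSB-2. Against the scrambled control, PMAIP1 rose in HSB-2 with both hairpins and fell in Jurkat with shRNA-4057. The AEN window was chr15:88621090-88621339 on the plus strand, that of RPS27L chr15:63157478-63157727 on the minus strand, that of FDXR chr17:74872995-74873244 on the minus strand, and that of PMAIP1 chr18:59899746-59899995 on the plus strand. Capitals mark the match in each.
AEN: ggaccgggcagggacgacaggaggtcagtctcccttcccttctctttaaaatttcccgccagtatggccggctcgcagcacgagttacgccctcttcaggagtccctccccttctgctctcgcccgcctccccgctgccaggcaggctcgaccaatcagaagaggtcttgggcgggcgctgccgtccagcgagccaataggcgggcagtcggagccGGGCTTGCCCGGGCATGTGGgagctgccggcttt
RPS27L: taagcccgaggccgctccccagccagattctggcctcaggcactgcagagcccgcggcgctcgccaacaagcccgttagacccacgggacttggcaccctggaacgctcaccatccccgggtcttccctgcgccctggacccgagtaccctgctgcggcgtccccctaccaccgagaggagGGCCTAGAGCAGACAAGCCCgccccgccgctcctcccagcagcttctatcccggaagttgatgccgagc
FDXR: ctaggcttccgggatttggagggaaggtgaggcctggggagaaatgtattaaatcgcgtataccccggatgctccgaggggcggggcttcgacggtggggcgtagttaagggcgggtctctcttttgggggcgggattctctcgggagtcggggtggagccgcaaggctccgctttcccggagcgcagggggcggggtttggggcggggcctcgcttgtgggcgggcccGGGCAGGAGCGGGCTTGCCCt
PMAIP1: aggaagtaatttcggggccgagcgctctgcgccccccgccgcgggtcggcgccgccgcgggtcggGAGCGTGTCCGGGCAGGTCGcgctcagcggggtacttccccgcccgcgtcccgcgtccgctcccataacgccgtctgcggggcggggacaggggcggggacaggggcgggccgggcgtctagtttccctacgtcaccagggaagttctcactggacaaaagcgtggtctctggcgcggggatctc
The AEN match had 2 mismatches and ended 15 bases before the start. The others had 3 mismatches and ended 50 bases before the start in RPS27L, 2 in FDXR and 166 in PMAIP1. A match describes the letters of the window, and no binding was measured.

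Sequencing depth was 76.6 to 235 M counts per library, so that 3 counts, the most that a count of 0 allows, equalled 0.0127 to 0.0392 CPM. These limits cover counting error only. USP7 RNA, the target of the hairpins, was 384 and 387 CPM in scrambled Jurkat cells, 140 and 145 CPM with shRNA-4057 and 244 and 242 CPM with shRNA-4058. The HSB-2 libraries had 227 and 220 CPM in scrambled cells, 144 and 149 CPM with shRNA-4057 and 162 and 156 CPM with shRNA-4058. The knock-down was partial in each line and deepest in Jurkat with shRNA-4057. All 9 T-lineage markers examined had reads in each group. Their summed level in HSB-2 was 2753 to 2824 CPM in scrambled cells, 3177 to 3196 in wild-type cells, 3442 to 3496 with shRNA-4057 and 3788 to 3893 with shRNA-4058. In Jurkat it was 2751 to 2786 CPM in wild-type cells, 2931 to 3000 in scrambled cells, 2712 to 2732 with shRNA-4057 and 2416 to 2495 with shRNA-4058. The summed level of 10 markers of other cell types was 5.44 to 10.4 CPM in HSB-2 and 31.5 to 70.4 CPM in Jurkat, highest in scrambled Jurkat cells, where CD79A alone gave a mean of 62.7 CPM. EPCAM had at most 1 count in any library, and 0 to 3 of these 10 markers had no read in a group. The part of these shifts in the results below was not tested.

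Before any hairpin, the p53 targets were higher in HSB-2 than in Jurkat. Between the wild-type cells, 26 of the 34 genes tested were higher in HSB-2 (33.5% of all genes tested were) and 4 were lower (34.6% of all genes), namely ACER2, FBXO22, PRKAB1 and SESN1. CDKN1A, which encodes the cyclin-dependent kinase inhibitor p21, differed most among the targets above 1 CPM. CDKN1A (ENSG00000124762.9, GRCh37 chr6:36644237-36655114, plus strand) was 1.39 and 1.63 CPM in the Jurkat wild-type libraries and 86.6 CPM in both HSB-2 wild-type libraries, a log2 difference of 5.85 ± 0.08 (SE, adjusted p = 1.5e-25). Per kilobase of exon, CDKN1A ranked 31 of 36 in Jurkat, at 0.504 CPM per kb, and 4 of 36 in HSB-2, at 28.9 CPM per kb. CCNG1, which encodes cyclin G1, ranked first in both lines, at 28.8 CPM per kb in Jurkat and 43.3 in HSB-2. PRKAB1, a regulatory subunit of the energy sensor AMPK, went the other way, at 21.5 CPM per kb in Jurkat and 5.51 in HSB-2. MDM2 did not differ by the test, at 18.6 and 18.2 CPM per kb, with a log2 difference of -0.03 ± 0.04 (adjusted p = 0.55). DRAM1, a regulator of autophagy, was near the detection limit in Jurkat and at 1.67 and 2.06 CPM in HSB-2.

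**Figure D1:**
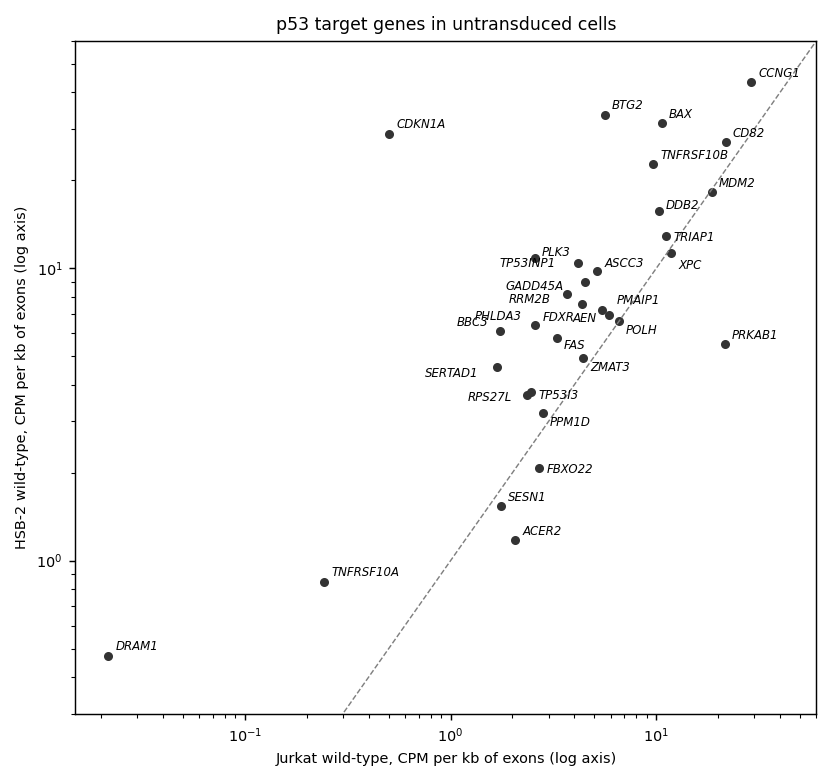
Level of each p53 target in wild-type cells, as mean CPM per kilobase of exons over 2 libraries, in Jurkat (x axis, log scale) and HSB-2 (y axis, log scale); the dashed line marks equal levels, and PLK2, CMBL and SPATA18 lie below the axes. Most genes sit above the line, CDKN1A farthest from it at 0.504 in Jurkat and 28.9 in HSB-2, and PRKAB1 lies below it.

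In HSB-2, most of the p53 targets were higher in cells with USP7 hairpins than in control cells. Against scrambled cells, 28 of the 34 genes tested rose with shRNA-4057 and 28 with shRNA-4058, where 21.9% and 26.6% of all genes tested rose. PLK2, with its few reads, is among both. RRM2B and TNFRSF10A fell with shRNA-4057, and RRM2B and ASCC3 with shRNA-4058 (21.7% and 26.2% of all genes fell). The latter count was 1 without wild-type replicate 1, scrambled replicate 1 or shRNA-4058 replicate 2. The median log2 fold change of the 34 genes was 0.52 with shRNA-4057 and 0.62 with shRNA-4058, and over all genes tested it was -0.02 and -0.01. Against both controls at once, 22 genes were higher with shRNA-4057, PLK2 among them, and 23 with shRNA-4058 (11.5% and 17.7% of all genes). TNFRSF10A was lower than both controls with shRNA-4057 and 0 targets were with shRNA-4058 (11.0% and 15.9% of all genes). For the latter edgeR's test gave 1 gene, ASCC3, at an unadjusted p under 0.05, and DESeq2 gave 0 called. The call of TNFRSF10A was lost without wild-type replicate 1, and the count of 0 was 1 without shRNA-4058 replicate 1. Both hairpins against both controls called 17 of 34 genes higher (9.2% of all genes) and 0 lower (7.83%; at an unadjusted p under 0.05, also 0). The 17 were CDKN1A, BTG2, GADD45A, BBC3, BAX, TNFRSF10B, TP53INP1, PHLDA3, MDM2, PPM1D, RPS27L, ZMAT3, XPC, DDB2, POLH, FDXR and PRKAB1. When the 4 libraries with hairpins formed 1 group against the scrambled cells, so that the difference between hairpins counted as error, 26 of 34 rose, PLK2 again among them, and RRM2B fell (20.3% and 17.8% of all 21113 genes tested). In 21 genes the 4 libraries with hairpins all lay above the 4 control libraries (15.6% of all genes), and in 0 all lay below (15.3%). The 21 include PLK2, which had to differ to be tested at all, so it adds nothing to these counts.

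In Jurkat, the same hairpins moved the p53 targets in both directions, with more genes lower than higher. Against scrambled cells, 6 of 34 rose and 13 fell with shRNA-4057 (22.7% and 27.3% of all genes), and 5 rose and 17 fell with shRNA-4058 (19.7% and 26.7%). Without shRNA-4058 replicate 1 the 5 became 3. DRAM1 is among the 17, with 2 counts in each shRNA-4058 library. The medians were -0.11 and -0.22, beside 0 and -0.01 over all genes tested. Against both controls, 5 were higher and 10 lower with shRNA-4057 (12.5% and 18.0% of all genes), and 4 were higher and 14 lower with shRNA-4058 (9.97% and 17.3%). Without shRNA-4058 replicate 1 the 4 became 2. AEN alone was higher with both hairpins against both controls (4.61% of all genes). BAX, CCNG1, CD82, DDB2, PRKAB1, RPS27L and TP53INP1 were lower in all 4 of these comparisons (9.73% of all genes). With the hairpins as 1 group, AEN and TNFRSF10A rose and 7 of 33 genes fell (12.4% and 15.7% of all 21288 genes tested). The 7 became 3 without either scrambled replicate, and the 2 became 1 without either scrambled replicate or shRNA-4057 replicate 2. The 4 libraries with hairpins lay above the 4 controls for AEN and below them for 12 genes (11.5% and 17.0% of all genes).

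**Figure D2:**
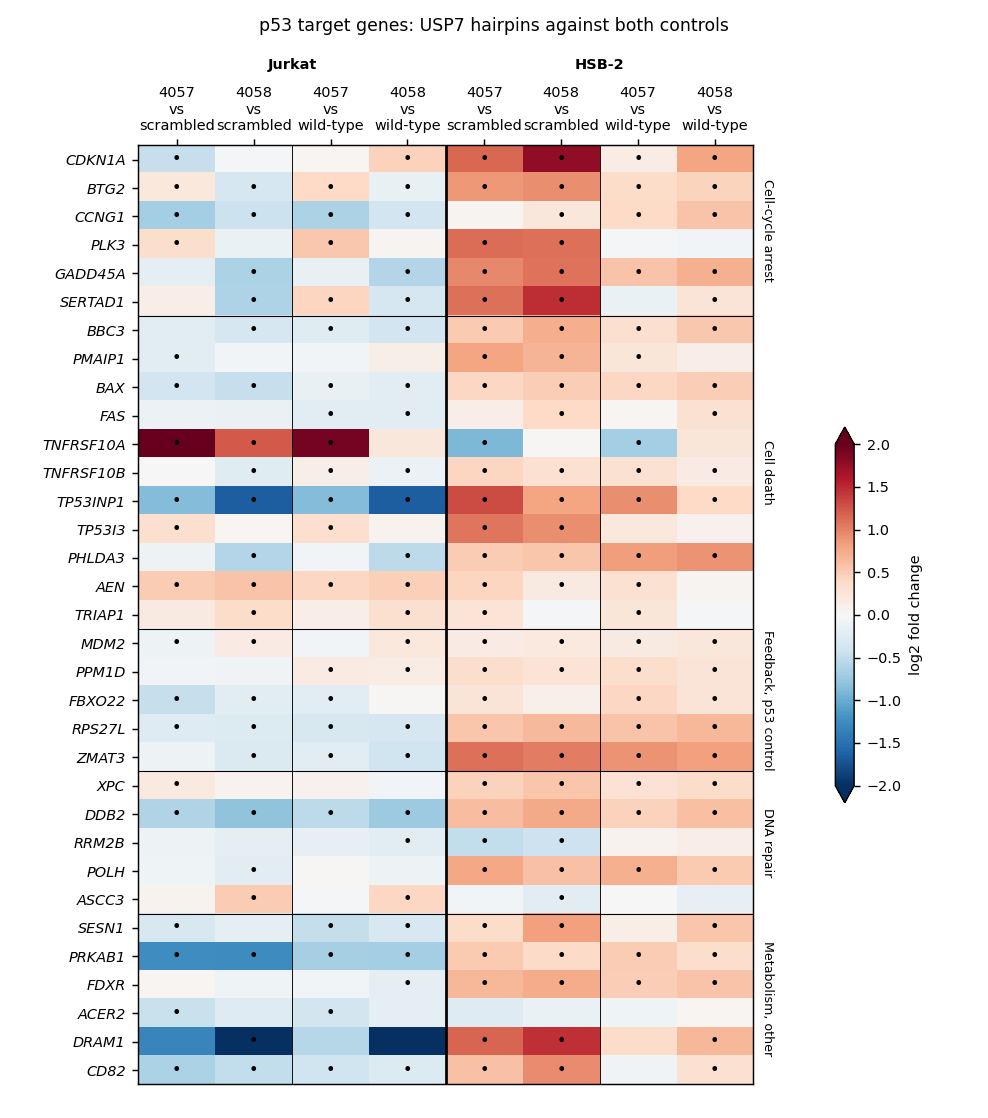
Log2 fold change of 33 p53 targets (rows, grouped by role; PLK2, with few reads, is left out) for each hairpin against scrambled and against wild-type cells (columns) in Jurkat and HSB-2; color runs from -2 (blue) to 2 (red), and a dot marks an adjusted p under 0.05. The HSB-2 columns are mostly red and the Jurkat columns mixed, with TP53INP1, DDB2 and PRKAB1 blue in Jurkat and red in HSB-2; DRAM1 in Jurkat rests on 1 to 19 counts per library.

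Of the 7 genes grouped under cell-cycle arrest, 6 rose with shRNA-4057 and 7 with shRNA-4058 in HSB-2 against scrambled cells. In Jurkat 2 rose and 2 fell with shRNA-4057 and 4 fell with shRNA-4058. SERTAD1, a cell-cycle regulator in this group, is not itself an arrest gene and is among the 6, the 7 and the 4. Over all genes tested, 21.9% and 26.6% rose in HSB-2. In Jurkat 22.7% rose and 27.3% fell with shRNA-4057 and 26.7% fell with shRNA-4058, so the counts of 2 among 7 lay near the share of all genes. The HSB-2 counts of 6 and 7 include PLK2, which had to differ to be tested at all and adds nothing to them. CDKN1A was 43.8 and 43.6 CPM in scrambled HSB-2 cells, 86.6 CPM in both wild-type libraries, 97.6 and 95.3 CPM with shRNA-4057 and 147 and 153 CPM with shRNA-4058. Groups did not overlap, and scrambled cells were lowest. Against scrambled cells the log2 fold change was 1.14 ± 0.06 with shRNA-4057 (adjusted p = 4.9e-14) and 1.78 ± 0.06 with shRNA-4058 (adjusted p = 9.8e-18). Against wild-type cells it was 0.16 ± 0.06 (adjusted p = 0.035) and 0.79 ± 0.06 (adjusted p = 4.6e-11). The call of shRNA-4057 against wild-type was lost when any of its 4 libraries was left out, with values of 0.14, 0.15, 0.17 and 0.19 on the log2 scale. In Jurkat, CDKN1A lay between 1.39 and 2.30 CPM in the 8 libraries, and no direction held for both hairpins and both controls. Its fall with shRNA-4057 against scrambled cells, -0.46 ± 0.12 (adjusted p = 0.003), was -0.35 and no longer called without scrambled replicate 1 or shRNA-4057 replicate 2.

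BTG2, an antiproliferative gene, was 65.0 and 66.5 CPM in scrambled HSB-2 cells, 92.6 and 92.1 CPM in wild-type cells, 122 and 117 CPM with shRNA-4057 and 124 and 127 CPM with shRNA-4058. Both hairpins lay above both controls, with log2 fold changes of 0.86 ± 0.04 and 0.93 ± 0.04 against scrambled cells and of 0.37 ± 0.04 and 0.44 ± 0.04 against wild-type cells. In Jurkat, BTG2 was 17.6 CPM in both scrambled libraries, rose to 20.8 and 19.9 CPM with shRNA-4057 and fell to 13.7 and 14.2 CPM with shRNA-4058. GADD45A, a stress sensor, rose in HSB-2 from 12.7 and 13.7 CPM in scrambled cells to 26.9 and 24.6 CPM with shRNA-4057 and 27.6 and 28.9 CPM with shRNA-4058, by 0.96 ± 0.07 and 1.09 ± 0.07 on the log2 scale. Wild-type HSB-2 cells lay between, at 17.6 and 16.8 CPM, so the rise above them was smaller. In Jurkat GADD45A fell with shRNA-4058, from 8.94 and 8.84 CPM in scrambled cells to 5.91 and 5.61 CPM. CCNG1 was 100.1 and 84.6 CPM in scrambled Jurkat cells, 54.0 and 61.7 CPM with shRNA-4057 and 73.8 and 63.8 CPM with shRNA-4058. It fell in Jurkat against scrambled cells by 0.68 ± 0.08 on the log2 scale with shRNA-4057 and by 0.42 ± 0.08 with shRNA-4058. In HSB-2, CCNG1 was above wild-type cells with both hairpins (0.40 ± 0.08 and 0.57 ± 0.08), and against scrambled cells it was 0.06 ± 0.08 (adjusted p = 0.6) and 0.22 ± 0.08 (adjusted p = 0.022). The last call was lost without scrambled replicate 2 (0.15) or shRNA-4058 replicate 1 (0.20).

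Of the 11 genes of cell death, 9 rose in HSB-2 against scrambled cells with either hairpin, and in Jurkat 3 rose with either hairpin while 3 fell with shRNA-4057 and 5 with shRNA-4058. The share of all genes that rose was 21.9% and 26.6% in HSB-2 and 22.7% and 19.7% in Jurkat, where 27.3% and 26.7% fell. The Jurkat counts of 3 among 11 lay near those shares. The group of 11 includes TRIAP1, an inhibitor of apoptosis. TRIAP1 is among the 9 with shRNA-4057 in HSB-2 and among the 3 that rose with shRNA-4058 in Jurkat. BBC3 encodes PUMA, a BH3-only protein that drives cell death through BAX, and BAX opens the mitochondrial membrane. BBC3 was 17.2 and 16.7 CPM in scrambled HSB-2 cells, 19.98 and 18.8 CPM in wild-type cells, 24.1 and 24.4 CPM with shRNA-4057 and 26.9 and 29.6 CPM with shRNA-4058. The libraries with hairpins lay above all controls, by 0.52 ± 0.07 and 0.73 ± 0.07 against scrambled cells (adjusted p = 2.3e-06 and 6.5e-09). In Jurkat BBC3 was 4.17 to 5.82 CPM, and its fall with shRNA-4058 against scrambled cells (-0.34 ± 0.09, adjusted p = 0.004) was -0.17 and not called without scrambled replicate 2 or with a correction for GC content and length. BAX was 78.6 and 84.7 CPM in scrambled HSB-2 cells, 82.6 and 79.7 CPM in wild-type cells, 110 and 108 CPM with shRNA-4057 and 111 and 119 CPM with shRNA-4058. The 2 HSB-2 controls did not differ by the test (0.01 ± 0.04), and the rise was 0.41 ± 0.04 and 0.49 ± 0.04 against scrambled and 0.42 ± 0.05 and 0.50 ± 0.05 against wild-type cells. In Jurkat BAX was 32.3 CPM in both scrambled libraries, 26.9 and 28.2 CPM in wild-type cells, 24.6 and 25.1 CPM with shRNA-4057 and 23.2 and 23.6 CPM with shRNA-4058. It fell by 0.38 ± 0.05 and 0.46 ± 0.05 on the log2 scale against scrambled cells. Against wild-type cells the fall with shRNA-4057 was smaller, 0.15 ± 0.05 (adjusted p = 0.021), and it was not called without wild-type replicate 2 (-0.12), scrambled replicate 2 (-0.13) or shRNA-4057 replicate 1 (-0.14).

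TP53INP1, which promotes p53-driven cell death, gave the largest difference between the lines among the targets above 1 CPM in both lines. It was 23.3 and 23.6 CPM in scrambled Jurkat cells, 24.4 and 22.9 CPM in wild-type cells, 12.2 and 13.7 CPM with shRNA-4057 and 7.93 and 7.06 CPM with shRNA-4058. The HSB-2 libraries had 46.8 and 43.1 CPM in scrambled cells, 57.0 and 60.4 CPM in wild-type cells, 107 and 116 CPM with shRNA-4057 and 76.7 and 78.2 CPM with shRNA-4058. The groups with hairpins lay below both controls in Jurkat and above both in HSB-2, and the hairpin with the larger effect was shRNA-4058 in Jurkat and shRNA-4057 in HSB-2. Against scrambled cells the log2 fold changes were -0.86 ± 0.07 and -1.65 ± 0.07 in Jurkat and 1.31 ± 0.06 and 0.78 ± 0.06 in HSB-2. TP53INP1 overlaps NDUFAF6 on the opposite strand.

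PHLDA3, which restrains AKT, shares exons with a noncoding gene on the same strand, so its reads may be divided. It was 25.5 and 26.7 CPM in scrambled HSB-2 cells, above wild-type cells at 20.1 and 21.4 CPM, and 36.02 to 40.0 CPM with the hairpins, a rise of 0.50 ± 0.08 and 0.56 ± 0.08 on the log2 scale against scrambled cells. In Jurkat PHLDA3 was 8.53 and 8.74 CPM in scrambled cells and 5.34 and 6.20 CPM with shRNA-4058, lower than both controls, by 0.58 ± 0.09 against scrambled cells, while shRNA-4057 did not pass (-0.10 ± 0.09). TNFRSF10B, the TRAIL receptor DR5, rose in HSB-2 from 103 and 105 CPM in scrambled cells to 141 and 140 CPM with shRNA-4057 and 127 and 129 CPM with shRNA-4058, by 0.43 ± 0.04 and 0.30 ± 0.04 on the log2 scale. The rise above wild-type HSB-2 cells, at 114.5 and 113.3 CPM, was smaller. In Jurkat TNFRSF10B was 52.1 and 52.6 CPM in scrambled cells, 48.4 and 48.5 CPM in wild-type cells, 53.2 and 52.4 CPM with shRNA-4057 and 45.5 and 43.4 CPM with shRNA-4058. With shRNA-4058 it was lower than scrambled cells (-0.24 ± 0.04 on the log2 scale) and wild-type cells (-0.12 ± 0.04), and the call against wild-type cells was lost with the Jurkat libraries alone (-0.09) and without either wild-type replicate (-0.13 for each), scrambled replicate 2 or shRNA-4058 replicate 2 (-0.09 for each). TNFRSF10B shares exon sequence with RHOBTB2 on the opposite strand, and whether counting used the strand is not given in the sources used here. FAS, a death receptor that overlaps ACTA2 on the opposite strand, rose in HSB-2 with shRNA-4058 (0.40 ± 0.07, adjusted p = 1.3e-05). With shRNA-4057 the value was 0.14 ± 0.07 (adjusted p = 0.1), and it passed with DESeq2 (0.17) and with a correction for GC content and length (0.27). FAS was 18.8 to 21.5 CPM in the controls and with shRNA-4057 in HSB-2, 26.2 and 24.3 CPM with shRNA-4058, and 9.88 to 11.8 CPM in Jurkat, where its values of -0.12 ± 0.07 and -0.14 ± 0.07 against scrambled cells did not pass. With the correction for GC content and length, shRNA-4058 passed (-0.25, adjusted p = 0.0013). Against Jurkat wild-type cells both hairpins were lower, at -0.21 ± 0.07 (adjusted p = 0.024) and -0.23 ± 0.07 (adjusted p = 0.015). Both calls were lost with the Jurkat libraries alone (-0.19 for each) and without wild-type replicate 1 (-0.20 and -0.22), the former also without wild-type replicate 2 (-0.23) or shRNA-4057 replicate 1 (-0.19), and the latter without shRNA-4058 replicate 1 (-0.24) or 2 (-0.23).

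AEN, an apoptosis-enhancing nuclease, rose against scrambled cells with both hairpins in both lines. It was 31.1 and 29.9 CPM in scrambled Jurkat cells, 31.2 and 33.5 CPM in wild-type cells, 43.9 and 42.4 CPM with shRNA-4057 and 45.1 and 45.4 CPM with shRNA-4058. The Jurkat libraries with hairpins lay above all controls, by 0.50 ± 0.05 and 0.57 ± 0.05 against scrambled cells. The HSB-2 libraries had 39.2 and 40.0 CPM in scrambled cells, 43.8 and 42.4 CPM in wild-type cells, 54.0 and 53.1 CPM with shRNA-4057 and 43.8 and 45.6 CPM with shRNA-4058. The HSB-2 change against scrambled cells was 0.43 ± 0.05 with shRNA-4057 and 0.17 ± 0.05 with shRNA-4058, the latter no longer called with the correction for GC content and length (0.08, adjusted p = 0.082).

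Of the 5 genes that feed back on p53, 5 rose with shRNA-4057 and 4 with shRNA-4058 in HSB-2, and 3 fell with either hairpin in Jurkat, against scrambled cells (21.9% and 26.6% of all genes rose in HSB-2, and 27.3% and 26.7% fell in Jurkat). MDM2 (GRCh37 chr12:69201957-69239324, plus strand) was 148.5 to 161 CPM in the control libraries of both lines, 146 and 152 CPM in Jurkat with shRNA-4057, 184 and 174 CPM in Jurkat with shRNA-4058, and 169 to 177 CPM in HSB-2 with the hairpins. In HSB-2 the libraries with hairpins lay above the controls, by 0.16 ± 0.04 (adjusted p = 0.0028) and 0.20 ± 0.04 (adjusted p = 0.00026) against scrambled cells, and the call of shRNA-4057 was lost without scrambled replicate 2 (0.11). In Jurkat shRNA-4057 gave -0.10 ± 0.04 against scrambled cells (adjusted p = 0.049), which was not called without either scrambled replicate (-0.09 for each) or shRNA-4057 replicate 1 (-0.07). It was also not called with the replicate block (adjusted p = 0.062), with at least 10 counts in every library, or with the Jurkat libraries alone (adjusted p = 0.16 for each). In Jurkat shRNA-4058 gave 0.16 ± 0.04 against scrambled cells (adjusted p = 0.0024), which turned to -0.05 with the correction for GC content and length and was 0.12 and not called without shRNA-4058 replicate 1. RPS27L, a ribosomal protein-like regulator of p53 and MDM2, fell in Jurkat from 19.7 and 20.2 CPM in scrambled cells to 16.8 and 16.5 CPM with shRNA-4057 and 17.1 and 15.97 CPM with shRNA-4058. It rose in HSB-2 from 32.5 and 33.3 CPM in scrambled cells to 48.4 and 47.9 CPM with shRNA-4057 and 49.3 and 54.0 CPM with shRNA-4058. For RPS27L the difference between the controls did not pass in either line, and its falls and rises passed against either control, with -0.26 ± 0.06 and -0.27 ± 0.06 in Jurkat and 0.55 ± 0.05 and 0.65 ± 0.05 in HSB-2 on the log2 scale against scrambled cells. ZMAT3, an RNA-binding zinc finger protein, rose in HSB-2, from 50.4 and 46.2 CPM in scrambled cells to 103 and 104.5 CPM with shRNA-4057 and 95.3 and 101 CPM with shRNA-4058, by 1.10 ± 0.05 and 1.02 ± 0.05 on the log2 scale. Its level in wild-type HSB-2 cells lay between, at 54.1 and 57.2 CPM. In Jurkat ZMAT3 was 47.1 and 45.4 CPM in scrambled cells and 39.1 and 36.4 CPM with shRNA-4058, lower than both controls, by 0.29 ± 0.05 against scrambled cells. With shRNA-4057 it was -0.11 ± 0.05 against scrambled cells (adjusted p = 0.096), and passed with the correction for GC content and length (-0.23). PPM1D, the phosphatase WIP1 that switches the p53 response off, was 29.0 to 31.1 CPM in the HSB-2 controls and 35.95 to 39.2 CPM with the hairpins, a rise of 0.35 ± 0.06 and 0.27 ± 0.06 against scrambled cells and by 0.35 ± 0.06 and 0.26 ± 0.06 against wild-type cells.

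**Figure D3:**
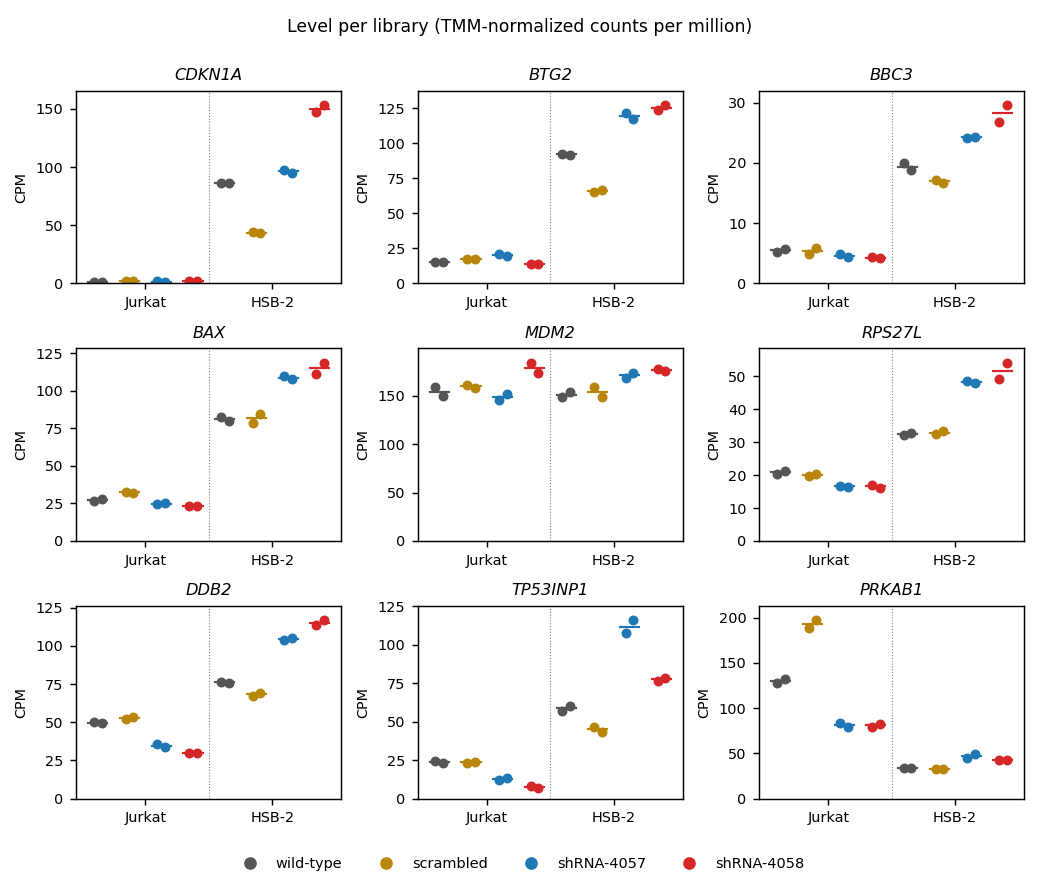
Level of 9 p53 targets in each of the 16 libraries, as TMM-normalized CPM from 0; points are libraries and lines are means of 2. CDKN1A is near 0 in Jurkat and 43.6 to 153 in HSB-2, MDM2 lies between 146 and 184 over both lines, and TP53INP1, DDB2 and PRKAB1 fall with the hairpins in Jurkat and rise in HSB-2.

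Of the 5 DNA repair genes, 3 rose with either hairpin in HSB-2 against scrambled cells (21.9% and 26.6% of all genes). With shRNA-4057 1 of the 5 fell and with shRNA-4058 2 fell (21.7% and 26.2% of all genes). In Jurkat 1 of the 5 rose and 1 fell with shRNA-4057 (22.7% and 27.3% of all genes). With shRNA-4058 1 rose and 2 fell in Jurkat (19.7% and 26.7% of all genes). The Jurkat counts of 1 lay near those shares. DDB2 moved in opposite directions in the lines with both hairpins. DDB2 (GRCh37 chr11:47236016-47260768, plus strand), which recognizes ultraviolet damage, was 52.2 and 53.4 CPM in scrambled Jurkat cells, 49.95 and 49.4 CPM in wild-type cells, 35.6 and 33.8 CPM with shRNA-4057 and 30.02 and 30.1 CPM with shRNA-4058. Its level in HSB-2 was 67.5 and 69.1 CPM in scrambled cells, 76.2 and 75.9 CPM in wild-type cells, 104 and 105 CPM with shRNA-4057 and 114 and 117 CPM with shRNA-4058. No group with a hairpin overlapped a control, and against scrambled cells the log2 fold changes were -0.60 ± 0.04 and -0.81 ± 0.04 in Jurkat and 0.61 ± 0.04 and 0.75 ± 0.04 in HSB-2. XPC, the damage sensor of nucleotide excision repair, rose in HSB-2 from 45.0 and 47.7 CPM in scrambled cells to 63.2 and 64.7 CPM with shRNA-4057 and 68.3 and 67.6 CPM with shRNA-4058, by 0.46 ± 0.04 and 0.55 ± 0.04 on the log2 scale. Wild-type HSB-2 cells lay between for XPC, at 53.6 and 51.3 CPM. POLH, the translesion polymerase eta, rose in HSB-2 from 53.2 and 52.4 CPM to 91.0 and 90.0 CPM and 80.8 and 77.2 CPM, by 0.78 ± 0.04 and 0.58 ± 0.04 on the log2 scale, with the limit that it overlaps GTPBP2 on the opposite strand. In Jurkat POLH was called lower with shRNA-4058 against scrambled cells, at 50.3 and 52.0 CPM beside 58.6 and 60.7 CPM, but not against wild-type cells. RRM2B, the p53-inducible ribonucleotide reductase subunit, was the repair gene that fell in HSB-2 against scrambled cells with both hairpins. It was 68.2 and 61.5 CPM in scrambled cells and 42.7 to 50.4 CPM in the other 6 HSB-2 libraries, so that it did not differ from wild-type cells by the test (0.07 ± 0.07 and 0.14 ± 0.07). It is named here after its values were seen.

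Of the 6 metabolic and other targets tested, 5 rose with either hairpin in HSB-2 against scrambled cells, and 4 fell with shRNA-4057 and 3 with shRNA-4058 in Jurkat. Of all genes, 21.9% and 26.6% rose in HSB-2 and 27.3% and 26.7% fell in Jurkat. The 3 include DRAM1, which had few reads in Jurkat. PRKAB1 (GRCh37 chr12:120105669-120119429, plus strand) was 189 and 197 CPM in scrambled Jurkat cells, 127.5 and 132 CPM in wild-type cells, 83.9 and 79.5 CPM with shRNA-4057 and 79.2 and 82.2 CPM with shRNA-4058. The hairpins lay below both controls, by 1.24 ± 0.04 and 1.26 ± 0.04 on the log2 scale against scrambled cells but by 0.67 ± 0.04 and 0.68 ± 0.04 against wild-type cells. In HSB-2 it rose from 32.9 and 32.5 CPM to 45.2 and 49.0 CPM with shRNA-4057 and 42.2 and 43.1 CPM with shRNA-4058. CD82, a tetraspanin, was 102 and 103 CPM in scrambled Jurkat cells and 65.1 to 73.3 CPM with the hairpins, and 68.7 and 70.9 CPM in scrambled HSB-2 cells and 102 to 137 CPM with the hairpins. It fell in Jurkat by 0.64 ± 0.04 and 0.50 ± 0.04 on the log2 scale and rose in HSB-2 by 0.58 ± 0.04 and 0.94 ± 0.04, each against scrambled cells. Against HSB-2 wild-type cells CD82 was -0.07 ± 0.04 with shRNA-4057 (adjusted p = 0.25) and 0.30 ± 0.04 with shRNA-4058. FDXR, a mitochondrial ferredoxin reductase, rose in HSB-2 by 0.66 ± 0.06 and 0.74 ± 0.06 against scrambled cells, from 24.1 and 24.0 CPM to 37.9 to 40.9 CPM. Its wild-type level in HSB-2 lay between, at 28.35 and 25.8 CPM. DRAM1 had 2 counts in each Jurkat library with shRNA-4058, and 19 and 7 in scrambled cells, too few for a reliable fold change.

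The other targets are given by their range over the 16 libraries. ASCC3, a helicase, was 53.8 to 125 CPM, FBXO22, a ubiquitin ligase subunit, 24.2 to 38.5 CPM, and TRIAP1, an inhibitor of apoptosis, 13.7 to 21.8 CPM. PMAIP1, which encodes the BH3-only protein NOXA, was 10.04 to 18.2 CPM, SESN1, a sestrin, 8.93 to 17.3 CPM, and TP53I3, an oxidoreductase, 4.54 to 10.8 CPM. SERTAD1 was 2.63 to 11.8 CPM and ACER2, a ceramidase, 3.04 to 6.23 CPM. PLK2, a kinase, did not exceed 0.261 CPM, SPATA18 had reads in 3 libraries, and CMBL had at most 4 counts. None of these 11 genes was called in 1 direction by both hairpins against both controls of a line.

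Scrambled and wild-type cells differed in many p53 targets, mostly upward in Jurkat and downward in HSB-2. In Jurkat, 11 of 34 genes were higher in scrambled than in wild-type cells and TNFRSF10A was lower (14.8% and 11.0% of all genes tested). The 11 became 5 to 7 when any one of these 4 libraries was left out, and the call of TNFRSF10A was lost without wild-type replicate 1. In HSB-2, 18 of 34 were lower and CCNG1, FBXO22, PHLDA3 and RRM2B were higher (17.9% and 16.1% of all genes). CDKN1A was lower in scrambled than in wild-type HSB-2 cells by 0.99 ± 0.06 on the log2 scale (adjusted p = 1.5e-12). PLK3, SERTAD1 and TP53I3, named here after their values were seen, rose against scrambled HSB-2 cells with both hairpins, by 0.94 to 1.48, and shRNA-4057 did not pass against wild-type cells for any of them. PLK3, a stress kinase, was 16.1 and 16.4 CPM in scrambled cells and 34.7 to 36.4 CPM in the other 6 HSB-2 libraries. With shRNA-4058, SERTAD1 was also called above wild-type cells, at 11.1 and 11.8 CPM against 9.31 and 9.92 CPM. For PLK3 and TP53I3, and for SERTAD1 with shRNA-4057, the response to the hairpins and the state of the scrambled cells cannot be told apart. The summed level of the T-lineage markers given above was likewise lowest in scrambled HSB-2 cells. Among these markers, PTPRC went the other way and was lower with both hairpins than in both HSB-2 controls.

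**Figure D4:**
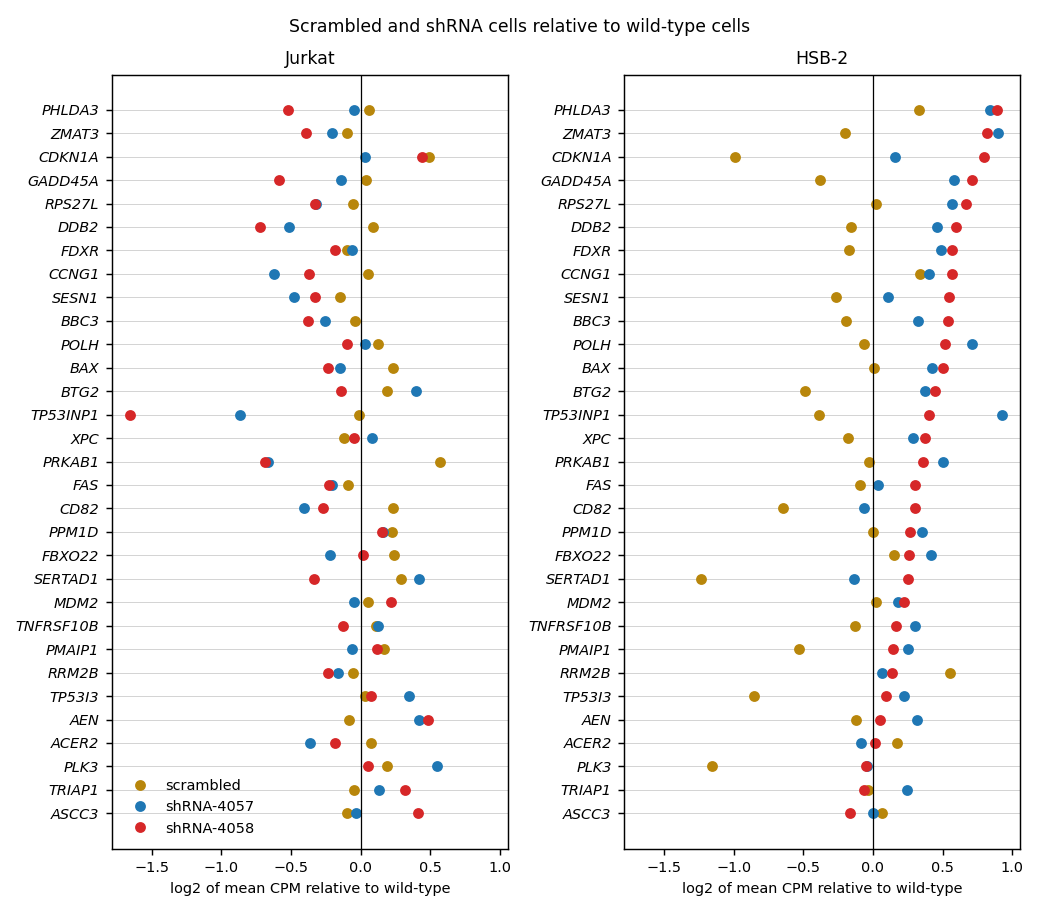
Log2 of the mean CPM of scrambled, shRNA-4057 and shRNA-4058 cells relative to wild-type cells (x axis) for the 31 p53 targets with a mean of at least 1 CPM in each group (y axis, ordered by shRNA-4058 in HSB-2). In HSB-2 most points of the scrambled control lie left of 0 and most points of the hairpins right of 0, with CDKN1A at -0.99 and PLK3 at -1.15 in scrambled cells.

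The 2 hairpins differed from each other in many targets. Called in either direction between shRNA-4057 and shRNA-4058 were 20 of 34 genes in Jurkat (33.9% of all genes) and 15 of 34 in HSB-2 (24.8%). The 20 became 13 without shRNA-4058 replicate 1, and the 15 became 9 without either shRNA-4057 replicate or shRNA-4058 replicate 2. TNFRSF10A was the extreme case in Jurkat. TNFRSF10A, the TRAIL receptor DR4, was 0.358 and 0.360 CPM in scrambled Jurkat cells, 0.847 and 0.578 CPM in wild-type cells, 3.02 and 2.44 CPM with shRNA-4057 and 0.796 and 0.890 CPM with shRNA-4058. TNFRSF10A was lowest in HSB-2 with shRNA-4057, at 1.48 and 1.63 CPM, against 2.38 to 3.16 CPM in the other 6 libraries.

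The difference between the lines was tested as the mean effect of both hairpins against scrambled cells in HSB-2 minus that in Jurkat. The knock-down was not equal in the lines, and USP7 itself was called in this test. Against scrambled cells USP7 was -1.43 and -0.67 in Jurkat and -0.61 and -0.49 in HSB-2 on the log2 scale, for shRNA-4057 and shRNA-4058. The part of this inequality in the values below was not tested. The difference was called positive in 27 of 34 genes (28.9% of all genes tested) and negative in AEN, ASCC3, RRM2B and TNFRSF10A (26.5% of all genes). DRAM1, with too few reads in Jurkat for a reliable value, is among the 27. The median was 0.84 over the 34 genes and -0.02 over all genes. The values were 2.30 ± 0.08 for TP53INP1, 1.71 ± 0.12 for CDKN1A, 1.70 ± 0.05 for PRKAB1 and 1.39 ± 0.05 for DDB2. With wild-type cells in place of scrambled cells they were 1.93 ± 0.08, 0.22 ± 0.12, 1.10 ± 0.05 and 1.15 ± 0.05, so that CDKN1A no longer passed (adjusted p = 0.14) and the others did.

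A list of 21 genes, p53 and its regulators, was also examined, and 19 were tested. In HSB-2 both hairpins against both controls called TP73 higher and ATR, CHEK1, HIPK2, SIRT1 and USP7 lower (9.2% and 7.83% of all genes). In Jurkat they called CREBBP higher and MDM4 and USP7 lower (4.61% and 9.73% of all genes). USP7, TP73, MDM4 and CREBBP had the largest absolute mean change against scrambled cells and are shown for that reason. TP73, which encodes the p53 relative p73, was 0.0169 to 0.152 CPM in Jurkat. In HSB-2 it was 32.3 and 32.7 CPM in scrambled cells, 43.6 and 41.9 CPM in wild-type cells, 61.3 and 60.3 CPM with shRNA-4057 and 54.1 and 54.6 CPM with shRNA-4058, so that scrambled cells were lowest and both hairpins lay above both controls. TP73 overlaps TP73-AS1 on the opposite strand. MDM4, which inhibits p53, fell against scrambled cells with both hairpins in both lines, by 0.19 to 0.37 on the log2 scale, but in HSB-2 with shRNA-4057 it was at 145 and 144 CPM beside 145 and 149 CPM in wild-type cells. CREBBP, a p53 coactivator, rose with both hairpins in both lines, by 0.37 to 0.68 against scrambled cells, and was 0.03 against wild-type cells in HSB-2 with shRNA-4058 (adjusted p = 0.57).

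**Figure D5:**
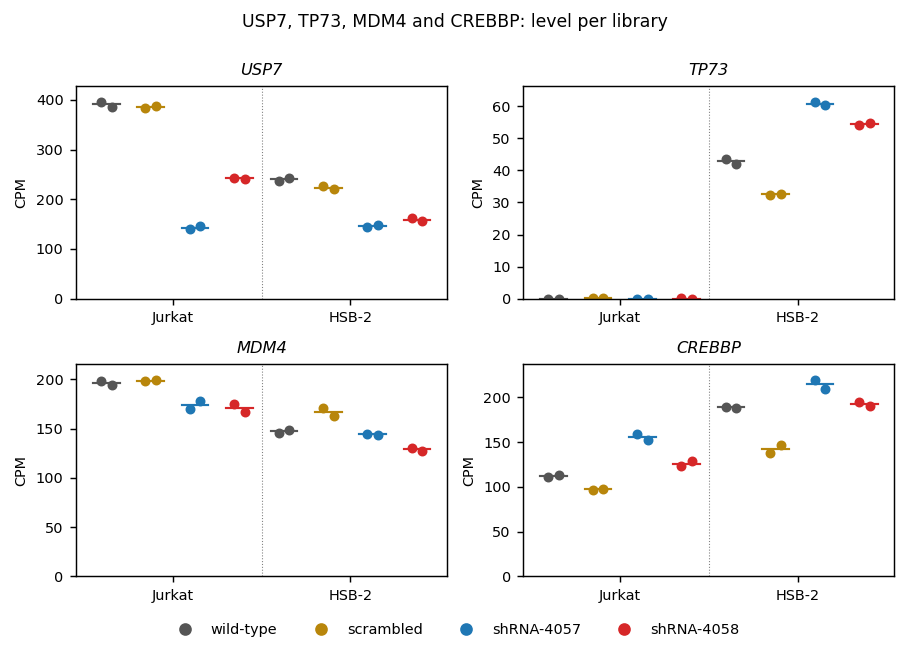
Level of USP7, TP73, MDM4 and CREBBP in each of the 16 libraries, as TMM-normalized CPM from 0; points are libraries and lines are means of 2. USP7 is lower with both hairpins, TP73 is at most 0.152 in Jurkat and runs in HSB-2 from 32.3 in scrambled cells to 61.3 with shRNA-4057, and CREBBP is higher with both hairpins than in scrambled cells.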

How the data were processed

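Total RNA was depleted of ribosomal RNA, sequenced with a strand-keeping kit and mapped by the authors to the human genome with their STRONGARM pipeline (BWA against GRCh37-lite, RefSeq, exon pairs and AceView). The deposited values are raw counts per gene from HT-seq, and the submitters' processing notes name HTSeq 0.6.1p1, STAR, CASAVA and hg19. The strand setting and annotation release are not given in the sources used here. Symbols were matched to 55538 of 57820 gene identifiers, and coordinates and exon lengths come from GENCODE lifted to GRCh37.

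Genes passing filterByExpr (23063) were fitted over all 16 libraries in 8 groups with edgeR 4.0.16 in R 4.3.3 (TMM, quasi-likelihood test, Benjamini-Hochberg threshold 0.05). The SE is the log2 fold change divided by the square root of F. A pooled comparison treated both hairpins of a line as 1 group. DESeq2 1.42.0, other filters, a correction for GC content and length, a replicate block and leaving out each library were alternatives. Fits were tested on simulated data. The target genes and lists were chosen with earlier results of these data known. Fold changes with tests are given for targets called in 1 direction by both hairpins against both controls of a line, or called in opposite directions in the lines, and for CDKN1A, MDM2, BBC3, BAX and FAS. The other targets are given by counts and levels, except where the text says otherwise. Results of 1 gene are not reported here.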

Additional observations from a re-analysis of the deposited data

Results flagged for a closer look

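For 31 of the 34 targets tested, the mean effect of both hairpins against scrambled cells differed between the lines by edgeR's quasi-likelihood test of that difference, 27 with a higher value in HSB-2 and 4 with a lower one (28.9% and 26.5% of all genes). Given as HSB-2 minus Jurkat on the log2 scale, the difference was 2.30 for TP53INP1, 1.71 for CDKN1A, 1.70 for PRKAB1, 1.43 for GADD45A, 1.39 for DDB2, 1.33 for CD82 and 1.26 for ZMAT3. It was 0.96 for BTG2, 0.898 for BBC3, 0.873 for BAX, 0.873 for PHLDA3, 0.865 for RPS27L, 0.837 for POLH, 0.726 for FDXR and 0.692 for CCNG1. It was 0.476 for TNFRSF10B, 0.396 for FAS, 0.374 for PPM1D, 0.372 for XPC and 0.148 for MDM2, and -0.232 for AEN. The other 10 targets, named here after their values were seen, were 3.48 for DRAM1, which rests on few counts in Jurkat, 1.53 for SERTAD1, 0.999 for PLK3, 0.862 for PMAIP1, 0.845 for SESN1, 0.826 for TP53I3, 0.527 for FBXO22, -0.311 for RRM2B, -0.427 for ASCC3 and -2.51 for TNFRSF10A. With wild-type in place of scrambled cells, the difference was no longer called for CDKN1A (0.22, adjusted p = 0.14), MDM2 (0.12, adjusted p = 0.064), PPM1D (0.15, adjusted p = 0.092), PMAIP1 (0.16, adjusted p = 0.11), SERTAD1 (0.01, adjusted p = 0.96) and TP53I3 (-0.06, adjusted p = 0.74), and it was called in the opposite direction for PLK3 (-0.34) and RRM2B (0.30). For the 10 targets named last, no other alternative was run. The difference of MDM2 was also not called without Jurkat scrambled replicate 1 (0.14) or HSB-2 scrambled replicate 2 (0.10), or with at least 10 counts in every library (0.11).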

How the results depend on the processing

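The direction and call of most single-gene values were the same under the alternatives: of these values, 2895 kept both, 73 lost the call, 18 gained it and 17 changed sign. Of the counts, 439 stayed within 1.5 times and 37 moved. In Jurkat, with the hairpins as 1 group, 1 target rose with the replicate block and 1 with wild-type in place of scrambled cells, and 11 fell with the correction for GC content and length and 4 with wild-type cells. Between scrambled and wild-type Jurkat cells, 7 targets were higher with every gene of at least 1 count and 7 with the Jurkat libraries alone, and 2 were lower with DESeq2's Wald test, with at least 10 counts in every library, and with the GC and length correction. In HSB-2, shRNA-4058 against scrambled cells gave 1 lower target with DESeq2's Wald test and with the GC and length correction, and against both controls 1 with at least 1 count and 1 with the HSB-2 libraries alone. The HSB-2 hairpins as 1 group gave 0 lower with the GC and length correction, with wild-type cells and with both controls. The cause was not tested.

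Leaving out each library gave, in Jurkat, 3 to 5 targets higher with shRNA-4058 against scrambled cells and 2 to 4 against both controls, 1 to 3 higher and 3 to 8 lower with the hairpins as 1 group, 5 to 11 higher and 0 to 1 lower in scrambled than wild-type cells, and 13 to 20 called between hairpins. In HSB-2 it gave 0 to 1 lower with shRNA-4057 against both controls, 1 to 2 lower with shRNA-4058 against scrambled cells and 0 to 1 against both controls, and 9 to 14 called between hairpins.

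The 17 changes of sign were as follows, all but that of MDM2 in values that had not been called. With the GC and length correction, CDKN1A was 0.0454 (Jurkat shRNA-4058 against scrambled) and -0.0193 (shRNA-4057 against wild-type), MDM2 -0.0522 (Jurkat shRNA-4058 against scrambled), GADD45A 0.0114 and FDXR -0.0165 (both Jurkat shRNA-4057 against scrambled) and AEN -0.00876 (HSB-2 shRNA-4058 against wild-type). With each library left out in turn, CDKN1A ranged from -0.242 to 0.117 (0.0626 without Jurkat scrambled replicate 1) for shRNA-4058 against scrambled, and from -0.0917 to 0.156 (-0.0847 without wild-type replicate 1) for shRNA-4057 against wild-type cells. With Jurkat shRNA-4057 against scrambled cells, TNFRSF10B ranged from -0.00182 to 0.0439, PHLDA3 from -0.304 to 0.0625 and FDXR from -0.00948 to 0.0718. Against wild-type cells PHLDA3 ranged from -0.249 to 0.118 and FDXR from -0.153 to 0.0259. CCNG1 in HSB-2 with shRNA-4057 against scrambled cells ranged from -0.0187 (also -0.014) to 0.14.

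Same-numbered replicates did not deviate together (r from -0.169 to 0.158 over 6 group pairs in Jurkat and from -0.0974 to 0.0664 over 6 in HSB-2). No shared effect of replicate number was seen, which cannot tell whether same-numbered libraries were prepared together. With the replicate block, the rising targets in HSB-2 were 28 with either hairpin against scrambled cells, and 12 instead of 13 fell in Jurkat with shRNA-4057. Depth limits DRAM1, PLK2, SPATA18 and CMBL, and groups of 2 libraries limit the rest.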

Other observations

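A further list of 24 p53 targets, of which 22 were tested, gave 14 that rose and 1 that fell, PANK1, in HSB-2 with shRNA-4057 against scrambled cells, and 18 and 1 with shRNA-4058. Over all genes tested, 21.9% rose and 21.7% fell with shRNA-4057, and 26.6% and 26.2% with shRNA-4058. The 14 and the 18 include GDF15, whose calls rest on few reads. GDF15 had 9 and 3 counts in scrambled HSB-2 cells, 19 and 4 in wild-type cells, 8 and 18 with shRNA-4057 and 41 and 11 with shRNA-4058. In Jurkat it gave 6 and 5 with shRNA-4057 and 5 and 6 with shRNA-4058, shares near those of all genes (22.7% and 27.3%, and 19.7% and 26.7%). Both hairpins against both controls called 6 higher in HSB-2 (CES2, PIDD1, RAP2B, TNFRSF10D, TRIM22 and ZNF79, beside 9.2% of all genes). They called 1 lower in Jurkat (9.73% of all genes), PERP, which had 4 to 26 counts per Jurkat library. PERP was tested only because of its reads in the Jurkat control cells. It had to differ to be tested at all, so it adds nothing to this count or to the 5 and 6 that fell. TNFRSF10D, a decoy receptor for TRAIL, was 0.808 and 0.774 CPM in scrambled HSB-2 cells, 1.73 and 1.87 in wild-type cells, 3.86 and 4.07 with shRNA-4057 and 4.66 and 4.04 with shRNA-4058. LIF, a cytokine, was 4.24 and 4.34 CPM in scrambled HSB-2 cells, 32.8 and 30.2 in wild-type cells and 22.0 to 25.4 with the hairpins, so that the hairpins were above one control and below the other.

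Of 16 cell-cycle genes known to be lowered by p53 through p21 and the DREAM complex, 13 rose and 1 fell in HSB-2 with shRNA-4057 against scrambled cells, and 14 rose and 2 fell with shRNA-4058, beside the same shares of all genes. Against both controls, both hairpins called 5 higher and 0 lower in HSB-2 (9.2% and 7.83% of all genes) and 0 higher and 4 lower in Jurkat (4.61% and 9.73%). In HSB-2 12 of the 16 were lower in scrambled than in wild-type cells (17.9% of all genes). KIF20A, a mitotic kinesin, was 45.8 and 48.8 CPM in scrambled HSB-2 cells, 66.3 and 66.7 in wild-type cells, 73.7 and 70.7 with shRNA-4057 and 85.2 and 82.2 with shRNA-4058. In Jurkat 5 of the 16 rose and 8 fell with shRNA-4057, and 4 rose and 8 fell with shRNA-4058 (22.7% and 27.3% of all genes, and 19.7% and 26.7%).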
